A study of Mus musculus with 4 samples.

Results

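The neurotrophin system of control CA1 was examined through 6 genes, the ligand genes Bdnf, Ntf3 and Gdnf and the receptor genes Ntrk2, Ntrk3 and Ngfr. Members were all probe sets whose platform gene symbol was 1 of these 6. The rule found 5 probe sets for 4 of the genes, among 12422 probe sets other than manufacturer controls and 8251 genes named by a single symbol. Bdnf, Ntrk2 and Ntrk3 had 1 probe set each and Gdnf had 2. No probe set carried the symbol Ntf3 or Ngfr, alone or among several symbols, so neither gene has a value. Total RNA came from area CA1 of the hippocampus of young male C57BL/6J mice, an inbred strain. All 4 samples were controls that an experimenter had handled and that were given no further treatment. Their RNA was collected at 1, 2, 4 or 6 h, counted from the final shock of a treated group that is not used here. Each hour had 1 sample on 1 Affymetrix mouse array, so a difference between 2 hours has no replicate check, and the SD over the 4 arrays holds sample, hour and array differences together.

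Neurotrophins are secreted proteins that support neurons and adjust synapses. Brain-derived neurotrophic factor, the product of Bdnf, acts through the receptor tyrosine kinase TrkB, the product of Ntrk2, and is known in the hippocampus for its part in long-term potentiation. Neurotrophin-3, the product of Ntf3, acts mainly through TrkC, the product of Ntrk3, while the receptor p75, the product of Ngfr, binds all mature neurotrophins and their precursors. Glial cell line-derived neurotrophic factor, the product of Gdnf, belongs to another family and signals through the kinase Ret together with a GFRalpha co-receptor. In whole tissue, fewer cells of a type and less RNA per cell cannot be told apart.

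Bdnf is known for being transcribed from several start sites, some of them responsive to neuronal activity through CREB, a transcription factor that binds the cAMP response element. The sequences shown are the member windows that hold the core of that element, since the Bdnf signal described next adds up whatever transcripts its probes bind and does not tell the start sites apart. Windows of 300 bases around annotated start sites (250 upstream, 50 downstream) were taken from RefSeq on GRCm38.p6. They were available for 5 of the 6 genes, 13 windows in all. The core was searched as ACGTCA on 1 strand, which is TGACGT on the other. It was present in 2 of the 13 windows, 1 of the 7 of Bdnf and 1 of the 2 of Gdnf, against 7.51% of all 32851 windows. The capitals mark the core, which starts 36 bases before the start site in Bdnf and 51 bases before it in Gdnf. The Bdnf window lies on the plus strand at chr2:109692186-109692485 and the Gdnf window on the plus strand at chr15:7809798-7810097. A match describes the letters only and does not show binding.
Bdnf: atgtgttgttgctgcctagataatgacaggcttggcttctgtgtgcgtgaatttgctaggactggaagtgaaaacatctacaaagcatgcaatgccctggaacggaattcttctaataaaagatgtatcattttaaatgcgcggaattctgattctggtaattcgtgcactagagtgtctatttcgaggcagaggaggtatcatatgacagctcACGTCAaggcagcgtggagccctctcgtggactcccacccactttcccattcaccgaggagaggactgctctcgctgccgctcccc
Gdnf: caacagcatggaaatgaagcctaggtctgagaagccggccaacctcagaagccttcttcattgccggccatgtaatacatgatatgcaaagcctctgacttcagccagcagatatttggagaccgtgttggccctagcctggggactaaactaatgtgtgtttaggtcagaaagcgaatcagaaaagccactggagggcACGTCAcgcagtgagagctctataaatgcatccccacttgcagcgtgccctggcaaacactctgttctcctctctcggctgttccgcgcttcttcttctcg

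Every value is a scaled intensity on a linear scale, called the signal. It can be set against other arrays for 1 probe set, but not against another probe set. The 2 h array differed from the others in 3' weighting: the 3' over 5' signal ratio of the Gapdh control was 1.08 at 2 h and between 3.62 and 4.10 at 1, 4 and 6 h. The same ratio of the beta-actin control differed less, with 1.72 at 2 h and between 2.27 and 2.93 on the other arrays. The log2 differences of the 2413 brightest probe sets from the 1 h array had an SD of 0.49 at 2 h, 0.30 at 4 h and 0.27 at 6 h. A ratio near 1 means similar signal from both ends, so by these controls 3' weighting was stronger at 1, 4 and 6 h. Values are also given without the 2 h array, because it was unlike the others. This does not mark it as the faulty array, and which arrays lie nearer the tissue was not tested. Of the CA1 pyramidal markers, 4 of 5 on the array were measurable by the rule explained further on, among them Wfs1 with signals of 2293, 1877, 2484 and 2508 at 1, 2, 4 and 6 h. Both Camk2a probe sets, which also belong to that list, were not. Dentate granule markers were measurable for 3 of 6 genes and summed to between 2026 and 2431, while the defining marker Prox1 had 57.9, 12.5, 17.8 and 18.2. Astrocyte markers were measurable for 8 of 8 genes and summed to between 20227 and 22133. The cholinergic markers Slc18a3 and Lhx8, which would report the basal forebrain cells known for p75, were not measurable, with signals between 14.4 and 65.3.

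Bdnf was the member ligand with a measurable signal on every array. Its signal was 2865 at 1 h, 1748 at 2 h, 2514 at 4 h and 2392 at 6 h, a mean of 2380 ± 467 (SD, n = 4). The 1, 4 and 6 h arrays lay close together and the 2 h array was the lowest. The log2 difference from 1 h was -0.71 at 2 h, -0.19 at 4 h and -0.26 at 6 h. Among the 2413 brightest tested probe sets, 13.3% lay at least as far from 1 h at 2 h, 48.7% at 4 h and 28.8% at 6 h. The low Bdnf value was that of the array whose Gapdh and beta-actin ratios were both the lowest, that is, the least 3' weighted. The part of this difference in 3' weighting in the Bdnf values was not tested. Dentate granule markers, whose cells are known to express Bdnf strongly, summed to 2026 on that array, the lowest of the 4 sums. Only 3 of these 6 marker genes were measurable. CA1 pyramidal markers were lowest on the 2 h array too, with 4673 against 5302.5 to 5598 on the others. So were interneuron markers with 40158 against 41198.5 to 43891 and endothelial and pericyte markers with 1404 against 1595 to 1888. Highest on that array were astrocyte markers with 22133 against 20227 to 20965, meningeal and choroid plexus markers with 8324 against 6435 to 7698, and microglial markers with 9121 against 7935 to 9032. CA2 and CA3 pyramidal markers were neither lowest nor highest there, with 20053 against 17933 to 21626 on the others. Nor were oligodendrocyte markers, with 23183 against 22700 to 29098.5. Each sum is led by its brightest probe sets, and the part of these marker differences in the Bdnf value was not tested.

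Gdnf lay at the edge of measurement on its brighter probe set and below it on the other. Probe set 92738_at had signals of 117, 235, 181 and 32.2 at 1, 2, 4 and 6 h. The first 3 were above the floor of 36.8, the 20th percentile of all signals, and the 6 h signal was under it. With values under the floor set to it, the geometric mean was 116.3, just under the filter of 116.4, the 40th percentile of all signals, so the probe set was not tested. Probe set 161598_at had 33.6, 33.4, 33.4 and 13.3, all under the floor. Neither probe set therefore gives a fold change for Gdnf. Without the 6 h array, 92738_at would count as measurable, so its place outside rests on that array alone.

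Ntrk3, the receptor gene of the neurotrophin-3 pathway, was the member receptor with a measurable signal. Its signal was 267 at 1 h, 354 at 2 h, 545 at 4 h and 504 at 6 h, a mean of 417 ± 130 (SD, n = 4). The 2 later arrays were the highest and the 1 h array the lowest. The log2 difference from 1 h was 0.41 at 2 h, 1.03 at 4 h and 0.92 at 6 h. Among the 2412 tested probe sets of middle signal, 43.4% lay at least as far from 1 h at 2 h, 2.28% at 4 h and 3.69% at 6 h. The 4 and 6 h signals lay closer to each other than either did to the 1 or 2 h signal. With 1 array per hour this has no replicate check. Oligodendrocyte markers, measurable for 7 of 8 genes, summed to 29098.5 on the 4 h array against 22700 to 23615 on the others. Their sum at 6 h was 23615. Such a sum is led by its brightest probe sets. The median log2 difference of the 7 tested oligodendrocyte genes from 1 h was 0.23, 0.11 and 0.01 at 2, 4 and 6 h, highest at 2 h. CA1 pyramidal markers, CA2 and CA3 pyramidal markers and endothelial and pericyte markers also had their highest sums at 4 h, with 5598, 21626 and 1888. The part of these marker differences in the Ntrk3 values was not tested.

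Ntrk2, the receptor of BDNF, gave almost no signal. Its probe set had 27.5, 40, 60.5 and 28.6 at 1, 2, 4 and 6 h. The 2 and 4 h values were above the floor of 36.8 and the others under it, and the floored mean of 42.5 was well under the filter of 116.4. TrkB is known to be widely expressed by hippocampal neurons and astrocytes, and the astrocyte markers were measurable on all arrays. The sources used here do not say which TrkB isoforms the probes bind. The low signal describes this probe set and sets no level for the receptor, and its cause was not tested.

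**Figure D1:**
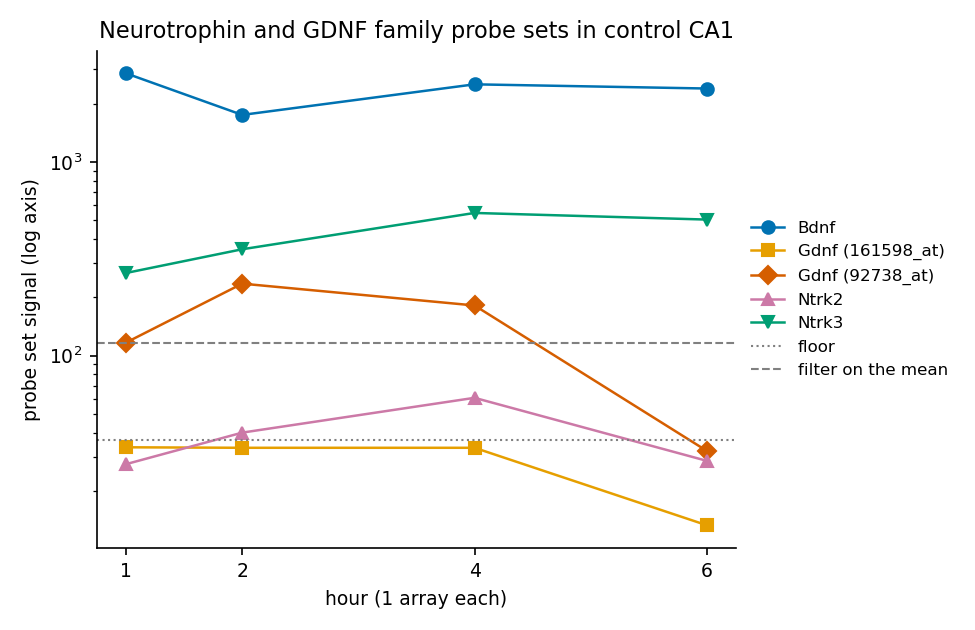
Signal of each member probe set (log axis) at 1, 2, 4 and 6 h, 1 array per hour, with the floor of 36.8 (dotted) and the filter of 116.4 on the mean (dashed). Bdnf and Ntrk3 stay above both lines, 92738_at of Gdnf crosses both between 4 and 6 h, and Ntrk2 and 161598_at of Gdnf stay near or under the floor; heights are not comparable between probe sets.

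A probe set was called measurable when its signal was above the floor on all 4 arrays and its floored mean reached the filter. By this rule 1 of the 2 ligand genes and 1 of the 2 receptor genes with a probe set were measurable. Ntf3 and Ngfr had none and are not counted. The rule passed 57.9% of all probe sets, so a share of 2 of 5 member probe sets is no excess. It also passed 10 of 33 probe sets (30.3%) of genes foreign to brain, such as those of liver, muscle and testis, and so does not by itself show expression. With the filter raised to the 60th percentile of all signals, 289, it passed 39.2% of all probe sets and 3 of the 33 (9.09%). Bdnf and Ntrk3 passed this stricter filter too.

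Over all 4 arrays, Bdnf and Ntrk3 had a larger spread than most probe sets of similar brightness. The SD of the log2 signal was 0.30 for Bdnf, above 77.2% of the brightest 2413, and 0.48 for Ntrk3, above 87.1% of the 2412 of middle signal. The median SD over all 7237 tested probe sets was 0.28. Without the 2 h array the SD of Bdnf was 0.13, above 44.4% of its group, and that of Ntrk3 was 0.56, above 95.5% of its group. The spread of Bdnf thus lay mostly in the 2 h array, and that of Ntrk3 did not. Bdnf ranged over 1.64-fold and Ntrk3 over 2.04-fold, against 77.4% of tested probe sets that stayed under 2-fold.

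**Figure D2:**
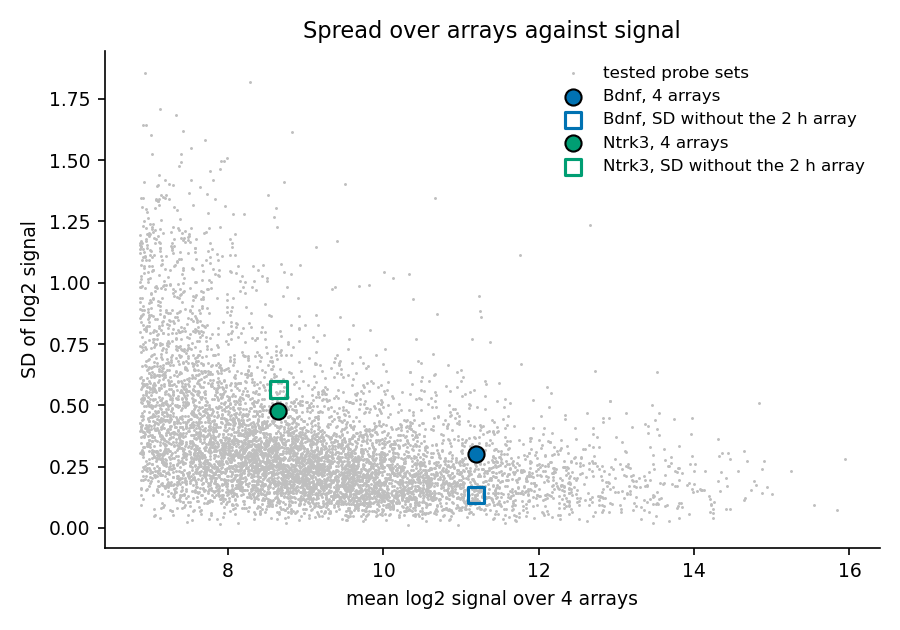
SD of log2 signal against mean log2 signal over the 4 arrays for the 7237 tested probe sets (grey), with Bdnf and Ntrk3 as filled circles and their SD without the 2 h array as open squares. Leaving out the 2 h array brings Bdnf from 0.30 down to 0.13 and Ntrk3 from 0.48 up to 0.56.

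A trend with the hour was not found for either gene. Fitted with limma over all 7237 probe sets, the slope was 0.19 ± 0.08 log2 per hour for Ntrk3 (SE, 4 arrays), higher on all 3 later arrays than at 1 h. Limma's unadjusted p was 0.0463 and its Benjamini-Hochberg adjusted p was 0.9996. The slope of Bdnf was 0.0023 ± 0.07, with limma's adjusted p of 0.9996. Limma called 0 of the 2 tested member probe sets, with 1 at an unadjusted p under 0.05, beside 0 of 7237 (0%) over all probe sets, with 196 at that p. The fit had 2 residual degrees of freedom.

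At least 2-fold from the 1 h array were 0, 1 and 0 of the 2 tested member probe sets at 2, 4 and 6 h. The 1 was Ntrk3 at 4 h, with 545 against 267 at 1 h, a ratio of 2.04. Over all tested probe sets, 3.69% were at least 2-fold higher at 4 h and 2.51% at least 2-fold lower. The corresponding shares were 6.92% higher and 3.29% lower at 2 h, and 3.74% higher and 2.79% lower at 6 h. The 4 h difference of Ntrk3 was 1.03 log2 as deposited, 0.98 after quantile normalization and 0.92 after median centring, so its side of 2-fold rests on the scaling. The 2 h difference of Bdnf was -0.67 and -0.84 under the same alternatives and stayed under 2-fold.

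The genes with profiles closest to Bdnf, by the root mean square difference of mean-centred log2 signals over the 4 arrays, were Cct3, Cmip and Neurod1. Cct3, a subunit of a cytosolic chaperonin, had signals of 1106, 683, 966 and 927 at 1, 2, 4 and 6 h, a difference of 0.0090. Cmip, a signalling adaptor, had 10935, 6608, 9602 and 9231, a difference of 0.011. Neurod1, a neurogenic transcription factor, had 264, 164, 236 and 220, a difference of 0.013. All 3 were lowest at 2 h too, which follows from choosing them by likeness over these same arrays. Such likeness was common, since 333 of 6497 probe sets compared with Bdnf (5.13%) had a Pearson r of at least 0.95 with it over the 4 arrays.

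Ntrk3 was most like Tbc1d10a, Golim4 and Traf4. Tbc1d10a, a Rab GTPase-activating protein, had 176, 255, 398 and 362, at a root mean square difference of 0.057 log2. Golim4, a Golgi membrane protein, had 109, 143, 198 and 202, at 0.067. Traf4, a TRAF family adaptor listed here among the p75 partners, had 278, 318, 509 and 488, at 0.078. Their 4 and 6 h signals were also higher than their 1 h signals, which follows from the same way of choosing. Within 0.1 log2 of Ntrk3 lay 13 of the 6497 probe sets, and 131 (2.02%) reached an r of at least 0.95 with it. The 4 points shared the same arrays in each case.

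For the pathway lists, each gene was taken through its brightest probe set. Of all 8251 genes, 5522 were measurable by the rule and 5546 were tested. Over all 5546 tested genes, 5.7% were at least 2-fold higher than at 1 h at 2 h, 3.05% at 4 h and 3.26% at 6 h. The shares at least 2-fold lower were 2.98%, 2.42% and 2.69%.

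Of 7 other ligand genes looked for, 4 were on the array and all 4 were measurable. Persephin, Pspn, had 234, 455, 374 and 360 at 1, 2, 4 and 6 h. Neurturin, Nrtn, a GDNF family ligand like Pspn, had 236, 316, 216 and 369. Artemin, Artn, also of the GDNF family, had 231, 74.3, 135 and 148, so that its 2 h value was at least 2-fold under its 1 h value. Of the 2412 dimmest tested probe sets, 7.13% lay at least as far from 1 h at 2 h. The secreted endoplasmic reticulum protein Manf had 1102, 1254, 1364 and 957 and stayed within 2-fold. The median log2 difference of the 4 from 1 h was 0.30, 0.09 and 0.21 at 2, 4 and 6 h, against -0.01, 0.01 and 0.02 over 5546 tested genes. Limma called 0 of the 4, with 0 at an unadjusted p under 0.05.

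Of 12 other receptor and co-receptor genes looked for, 6 were on the array and 4 were measurable. Ret, the kinase of the GDNF family receptors, was under the floor on every array, with 10.4, 11.2, 12.7 and 9.5. The co-receptors of Ret differed. Gfra1, which binds GDNF, had 76.3, 180, 74.3 and 148, above the floor but under the filter. Gfra2, which binds neurturin, had 244, 364, 405 and 238 on 92448_s_at but 10.7, 86.9, 4.4 and 11.6 on 92449_at. Gfra3, which binds artemin, had 166, 238, 125 and 146. The sorting receptor Sorl1 had 143, 274, 182 and 116, highest at 2 h. Ncam1, an adhesion molecule that can act as a GDNF receptor, had 2738, 2738, 2611.5 and 2763 on 100153_at, the steadiest of these, with an SD of 0.04 log2. Its other probe sets had between 278.5 and 498 on 161750_f_at and between 12.9 and 21.9 on 100152_at. The median log2 difference of the 4 tested genes from 1 h was 0.55 at 2 h, 0.14 at 4 h and -0.11 at 6 h. Limma called 0 of these 4, with 0 at an unadjusted p under 0.05. Over the 2 genes that passed the stricter filter, the 2 h median was 0.29.

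**Figure D3:**
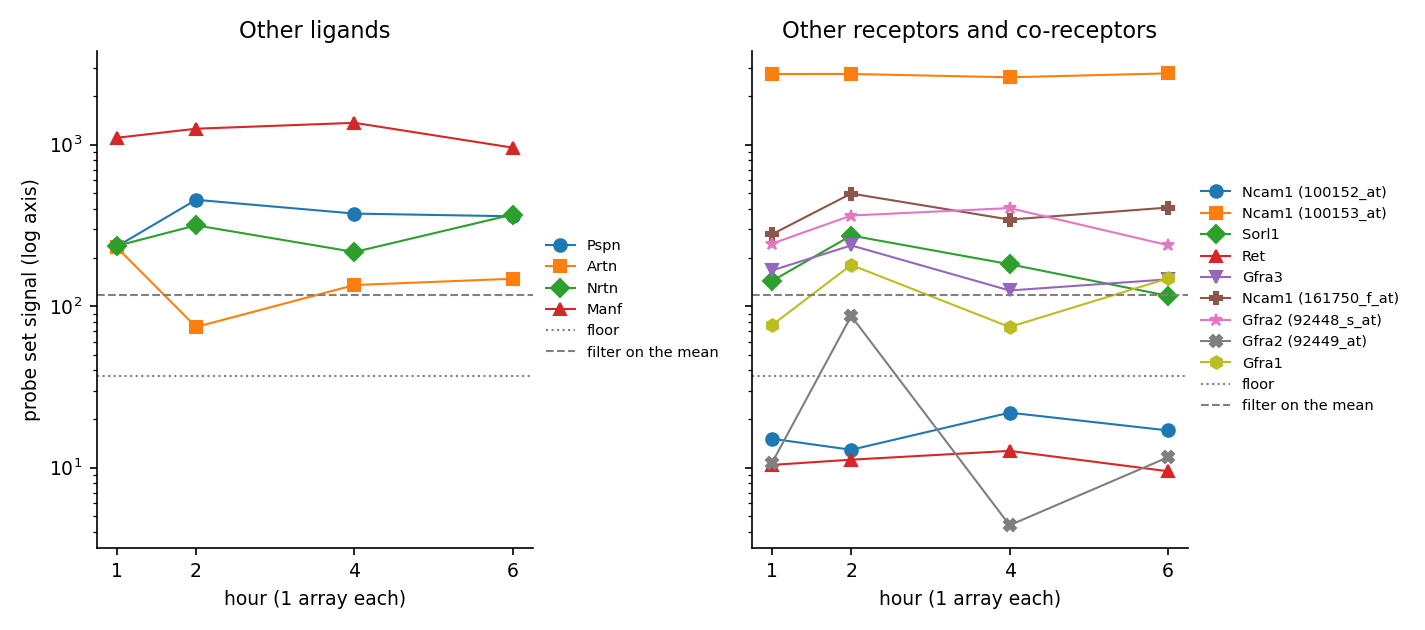
Signals (log axis) of the other ligand probe sets (left) and of the other receptor and co-receptor probe sets (right) at 1, 2, 4 and 6 h, 1 array per hour, with the floor of 36.8 (dotted) and the filter of 116.4 (dashed). Ret stays under the floor on all arrays, Artn is lowest at 2 h with 74.3, and the probe sets of Gfra2 and of Ncam1 disagree in brightness.

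Genes that handle neurotrophins and p75 were partly measurable. Among p75 partners, 7 of 15 genes were on the array and 6 were tested. None of the 6 was at least 2-fold from 1 h, as was true of most tested genes by the shares given above. Maged1, an adaptor of p75, had 5141, 5528, 5922 and 6436 at 1, 2, 4 and 6 h, and Traf2 had 382, 393, 535 and 194. Of 14 genes of proneurotrophin processing, 12 were on the array and 8 were tested. The proprotein convertase gene Pcsk6 had 68.6, 403, 127 and 224, and was at least 2-fold above 1 h at 2 and 6 h. Pcsk1, the convertase of the regulated secretory pathway, had 120, 61.2, 267 and 129, and was at least 2-fold above 1 h at 4 h. Both were dim. Of the 2412 dimmest tested probe sets, 1.37% lay at least as far from 1 h as Pcsk6 at 2 h and 5.76% at 6 h. For Pcsk1 at 4 h the share was 12.4%. Pcsk5 had 206, 167, 351 and 161 on its brightest probe set. The median log2 difference of this list was -0.30, 0.74 and -0.07 at 2, 4 and 6 h. At 4 h it was -0.12 over the 4 genes that passed the stricter filter, so the higher median rested on dim genes.

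Of 46 adaptors and kinases downstream of Trk receptors, 31 were on the array and 20 were tested. At 2 h 3 were at least 2-fold above 1 h and 1 at least 2-fold below, beside 5.7% above and 2.98% below over all 5546 tested genes. Akt2, a kinase of the survival pathway, had 514, 1218, 617 and 481 at 1, 2, 4 and 6 h, and Akt1 had 750, 1663, 883 and 647. Pik3r2, a regulatory subunit of phosphatidylinositol 3-kinase, had 484, 1037, 1056 and 883, so that all later arrays were above 1 h. Fyn, a Src family kinase that associates with TrkB, had 2868, 1045, 2138 and 2376. Its low 2 h value and the high 2 h values of Akt1 and Akt2 lay on the same array as the low Bdnf value. Sos2, a Ras exchange factor, had 194, 154, 113 and 110 and did not reach 2-fold. The median log2 difference was -0.17, 0.09 and 0.01 at 2, 4 and 6 h.

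Of 22 regulators of Bdnf transcription, 15 were on the array and 13 were tested. Rest, a repressor of neuronal genes that binds the Bdnf locus, had 72.6, 143, 184 and 188 at 1, 2, 4 and 6 h. It was at least 2-fold above 1 h at 4 and 6 h. Of the 2412 dimmest tested probe sets, 9.12% and 8.91% lay at least as far from 1 h at these hours. Crebbp, the co-activator of CREB, had 1598, 714, 1375 and 1220, lowest at 2 h, as was Bdnf. Mef2c, an activity-regulated factor, had 141.5, 351, 170 and 111.5 on its brightest probe set, and Crem, a CREB family member, had 242, 244, 357 and 137. Of the 13 tested regulators, 1 each at 2, 4 and 6 h was at least 2-fold above 1 h. At least 2-fold below were 1 at 2 h, 1 at 4 h and 0 at 6 h, beside the shares over all tested genes given above. Those at 2 h were Mef2c above and Crebbp below. The median log2 difference was 0.01, 0.05 and -0.24. Of 18 genes known to respond to BDNF in neurons, 13 were on the array and 12 were tested, with a median of 0.20, -0.02 and -0.02. The transcription factor gene Egr2 gave 184, 419, 191.5 and 108. Dusp6, which encodes an ERK phosphatase, gave 760, 1606, 930 and 824.5. Both were at least 2-fold above 1 h at 2 h. They were 2 of the 12 tested genes, and 0 were at least 2-fold below. Over all 5546 tested genes, 5.7% were above and 2.98% below at 2 h. At that hour 14.3% of the 2412 dimmest tested probe sets lay at least as far from 1 h as Egr2. For Dusp6 the share was 3.85% of the 2413 brightest. Nptx2, a secreted pentraxin, had 509, 451, 433 and 310.

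In these last 5 lists limma called 0 genes for a slope with the hour, up or down, with 0 at an unadjusted p under 0.05 and a smallest adjusted p of 0.9996. For signals above the floor on both arrays, centring the arrays on their medians lowers the log2 difference from 1 h by 0.12, 0.11 and 0.14 at 2, 4 and 6 h. The 7 of 21 list medians that lay between 0 and this shift therefore turned negative: those of p75 partners at 2 and 6 h, of Trk adaptors and kinases at 4 and 6 h, of Bdnf regulators at 2 and 4 h and of other ligands at 4 h. With quantile normalization 4 of the 21 took the opposite sign, those of p75 partners at 2 h, of Trk adaptors and kinases at 4 and 6 h and of Bdnf regulators at 2 h, and that of Bdnf regulators at 4 h became 0. No direction is read from these medians. Medians that kept their sign under both included that of other receptors at 2 h, over 4 genes. That of proneurotrophin processing at 4 h did too, but was -0.12 with the stricter filter.

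**Figure D4:**
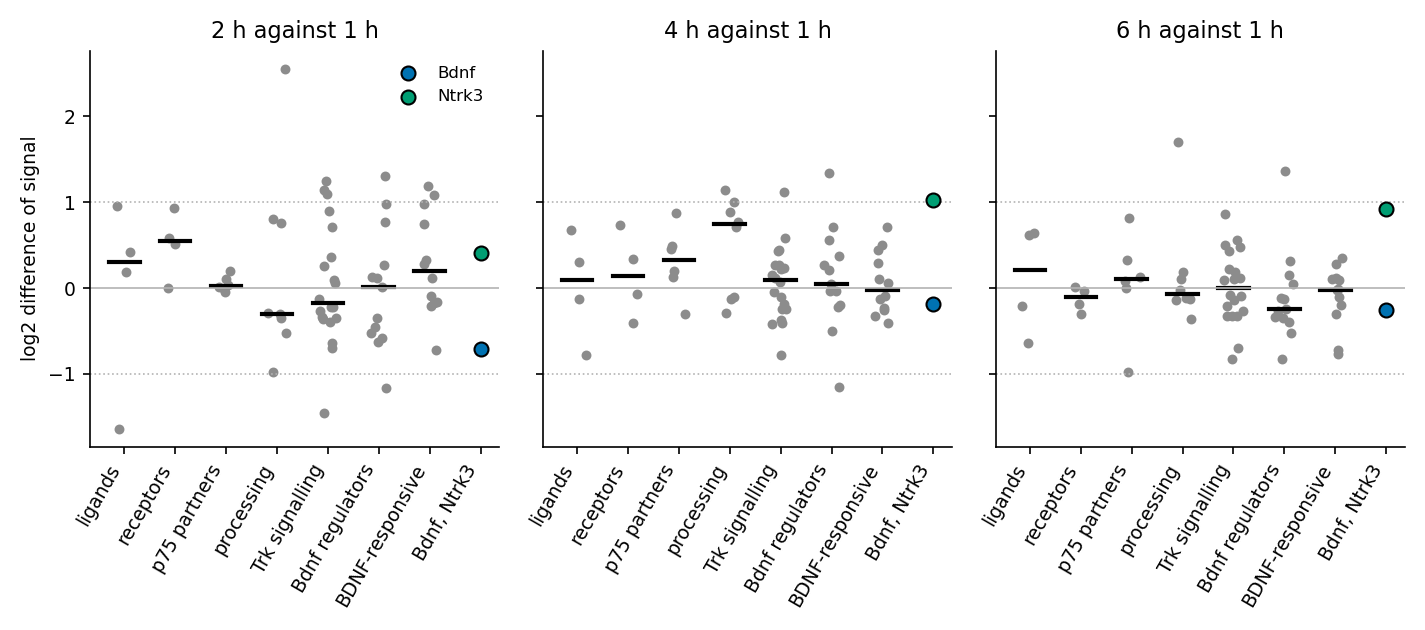
Log2 difference of signal from the 1 h array at 2, 4 and 6 h for each tested gene (grey) of the 7 pathway lists, with the list median (black bar), beside Bdnf and Ntrk3; dotted lines mark 2-fold. Bdnf is lowest at 2 h with -0.71 and Ntrk3 is near or above 2-fold at 4 and 6 h with 1.03 and 0.92.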

How the data were processed

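The authors deposited a linear intensity for each probe set on each array. The software and background correction behind these values are not stated, and no detection calls were used. After trimming 2% at each end, the array means were 500.3 and differed by 0.0062%, so the authors appear to have scaled the arrays to 1 mean, which leaves differences in the shape of the distributions in place. The values were used as deposited. Signals under 36.8, the pooled 20th percentile, were set to it, log2 was taken, and the 7237 of 12422 probe sets whose mean reached 116.4, the pooled 40th percentile, were tested.

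Symbols came from the platform annotation and were updated through gene identifiers for 10817 of 10833 probe sets with 1 symbol; 396 with several and 1193 with none are not named. A gene entered a list through its brightest probe set. Slopes per hour were fitted with limma 3.58.1 in R 4.3.3 (mean-dependent prior, two-sided, Benjamini-Hochberg at 0.05), tested on simulated data; Python 3.11.15 and pandas 2.3.3 did the rest. The replicates, 4 samples of 1 group, differ in hour, and nothing says how many mice each holds. The genes named in the 2 lists of other ligands and receptors were all those on the array; in the other 5 lists they were the 2 with the largest difference from 1 h at 6 h and the 2 at 2 h, with Akt1 and the tissue markers named after their values were seen. For Bdnf and Ntrk3, the 3 closest profiles were named. The members and lists were chosen with earlier results of these data known. Alternatives covered normalization, floor, filter, time scale, variance prior, fold threshold, compared array, probe sets per gene and leaving out each array. The number of arrays limits the precision.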

Additional observations from a re-analysis of the deposited data

Results flagged for a closer look

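Among 28 tested probe sets of members and named genes, Dixon's test for 1 outlying array flagged 1, Ncam1 on 100153_at. Its 4 h signal of 2611.5 stood below 2738, 2738 and 2763 at 1, 2 and 6 h. The gap was 0.840 of the whole range, past Dixon's 95% limit for 4 samples, though that range was only 1.06-fold. Chance alone flags about 1 in 20 groups, so 1 flag among 28 is no excess. No probe set of Bdnf or Ntrk3 was singled out in this way.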

How the results depend on the processing

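The call of Bdnf and Ntrk3 as measurable held under each normalization, floor and filter tried and without each array, and without the 6 h array 3 probe sets were measurable, the third being 92738_at of Gdnf. No member and no gene of the pathway lists was called for a trend under any setting. The slope of Ntrk3 stayed upward throughout, between 0.13 and 0.34 log2 per hour without each array in turn. That of Bdnf, near 0, turned to -0.0186 with median centring and to -0.0362 per doubling with the hour on a log2 scale. Without each array it lay between -0.0529 and 0.113: it was -0.0529 without 2 h, -0.00485 without 4 h and -0.0163 without 6 h. Over all probe sets, leaving out the 2 h array gave 30 calls, from 1 residual degree of freedom. The count of members at least 2-fold from 1 h was unstable. At 4 h the 1 became 0 with quantile normalization, median centring, a 3-fold threshold or the median of the 3 other arrays for comparison. At 6 h the 0 became 1 with quantile normalization, median centring, no filter or a 1.5-fold threshold. At 2 h it became 1 with the floor at the 30th percentile, no filter or a 1.5-fold threshold, and lay between 0 and 1 without each array. Apart from the 1.5-fold threshold, each such 1 at 2 or 6 h was 92738_at of Gdnf, which these settings let into the comparison and whose 6 h signal is under the floor. Of the 21 list medians, 3 took the opposite sign and 1 became 0 without the filter on dim probe sets, and 4 took the opposite sign with the stricter one. Without each array in turn, the SD of log2 signal lay between 0.13 and 0.37 for Bdnf, lowest without the 2 h array, and between 0.33 and 0.56 for Ntrk3, lowest without the 1 h array. The 1 array per hour limits every difference between hours.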
